A study of Mus musculus with 8 samples.

Results

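The renin-angiotensin system genes described here are *Agt*, *Ace*, *Agtr1a*, *Agtr1b*, *Agtr2*, *Mas1*, *Agtrap*, *Atp6ap2* and *Lnpep*. These 9 genes were taken by their names from the 46040 genes of a count table of left ventricular (LV) RNA. The system is a hormone cascade that raises blood pressure. Renin cuts angiotensinogen, the product of *Agt*, to angiotensin I, which angiotensin converting enzyme (ACE) turns into angiotensin II (angII). AngII acts mainly through the AT1 receptor, and in the heart this signal is known for hypertrophy, matrix deposition and vasoconstriction. The AT2 receptor and the Mas receptor, which binds angiotensin-(1-7), are known as counteracting branches.

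All 8 libraries were made from LVs of male C57BL/6 mice aged 5 to 7 months. The mice received angII (0.1 mg/kg/h) from subcutaneous pumps and were perfused and collected on day 14. Every animal was thus exposed to added angII, and no group without infusion was analysed here, so none of the values shows the effect of the infusion itself. The 2 groups of 4 libraries are littermate controls and mice whose *Flt1* allele, the gene of VEGFR-1, lacks the part for the intracellular tyrosine kinase domain in all cells. Only animals that survived to day 14 could be sampled. The labels contradict each other on genotype, because each title names the genotype opposite to that of the tag and of the library name. Libraries were grouped by the library names and tags, and are called control-tagged (tag wildtype) and TK-tagged (tag VEGFR1_TK -/-). Log2 fold changes are TK-tagged over control-tagged throughout. If instead the titles hold, all signs turn. The labels do not say whether the libraries of a group came from separate mice, although the study counts each library as a replicate, so a p-value measures the spread between these libraries.

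Between 11449137 and 16239670 counts per library fell on genes. *Flt1*, the altered gene, had a normalized CPM of 56.9 to 84.3 in the control-tagged and of 144 to 170 in the TK-tagged libraries, and its whole-gene count cannot show which label is right. Normalized CPM is the CPM (each count scaled to the library total) after TMM scaling. The labels give the source as LV tissue, while every library name contains the word cardiomyo. The summed normalized CPM of 8 ventricular cardiomyocyte markers was 64500 to 103000, that of 5 atrial markers 7.43 to 18.8, that of 8 endothelial markers 1270 to 1800 and that of 7 fibroblast markers 638 to 1640. These sums do not tell the left from the right ventricle, or whole tissue from a cardiomyocyte preparation that holds other cells.

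A pair of coding sequences helps to read the values, both from GENCODE M21 transcripts on GRCm38. The first is the stretch of *Agt* that codes for angiotensin I, the substrate of ACE. It lies at chr8:124564450-124564479 on the minus strand, in exon 2 of 5, and holds codons 30 to 39 of the annotated coding sequence. The capitals mark the 24 bases of the 8 codons of angII itself, the peptide that was infused:
Agt, angiotensin I codons: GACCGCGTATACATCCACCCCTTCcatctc
The second is the stretch of 60 coding bases in which the AT1 receptor genes *Agtr1a* and *Agtr1b* differ most. It is coding base 964 to 1023 of both genes, at chr13:30381917-30381976 on the plus strand for *Agtr1a* and at chr3:20315418-20315477 on the minus strand for *Agtr1b*. The capitals mark the 13 bases that differ:
Agtr1a: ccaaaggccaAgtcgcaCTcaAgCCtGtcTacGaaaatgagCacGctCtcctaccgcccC
Agtr1b: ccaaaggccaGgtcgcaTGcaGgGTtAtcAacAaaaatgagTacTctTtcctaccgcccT
Over 1077 coding bases without the stop codon the genes differ at 99, an identity of 90.8%. The longest shared run is 66 bases, and each of the 978 windows of 100 bases, the length of 1 read, holds at least 1 difference. Reads over the coding part can therefore be placed on one of the genes, within the limits of the mismatches that the alignment allowed.

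Of the 9 genes, 7 were tested, having a CPM of 1 or more in 2 or more libraries, and *Agtr1b* and *Agtr2* did not. To compare genes with each other, normalized CPM was divided by the length of the annotated exons in kb. On this scale *Ace* had the highest level of the 9 genes (24.7 ± 6.34, SD, n = 8), above 87.0% of all genes tested. It was followed by *Agtrap* (13.8 ± 0.732), *Agtr1a* (11.2 ± 2.15), *Agt* (8.66 ± 4.74) and *Atp6ap2* (7.83 ± 0.707, each SD, n = 8). *Lnpep* (1.23 ± 0.129) and *Mas1* (0.470 ± 0.205, each SD, n = 8) were far lower, the latter above 9.54% of the genes tested. The lowest library of *Ace* (17.2) lay above the highest of *Agtrap* (15.2), and the libraries of *Atp6ap2*, *Lnpep* and *Mas1* did not overlap either. *Agtrap* and *Agtr1a*, *Agtr1a* and *Agt*, and *Agt* and *Atp6ap2* overlapped, so their order is not larger than the spread between libraries. The order also depends on the exon length used, which joins the exons of all annotated transcripts of a gene. It is 14144 bases for *Lnpep*, 5287 for *Ace*, 4236 for *Agtrap* and 1891 for *Agt*. A shorter length for *Agtrap* would raise its level, so the gap between *Ace* and *Agtrap* holds for these lengths only.

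**Figure D1:**
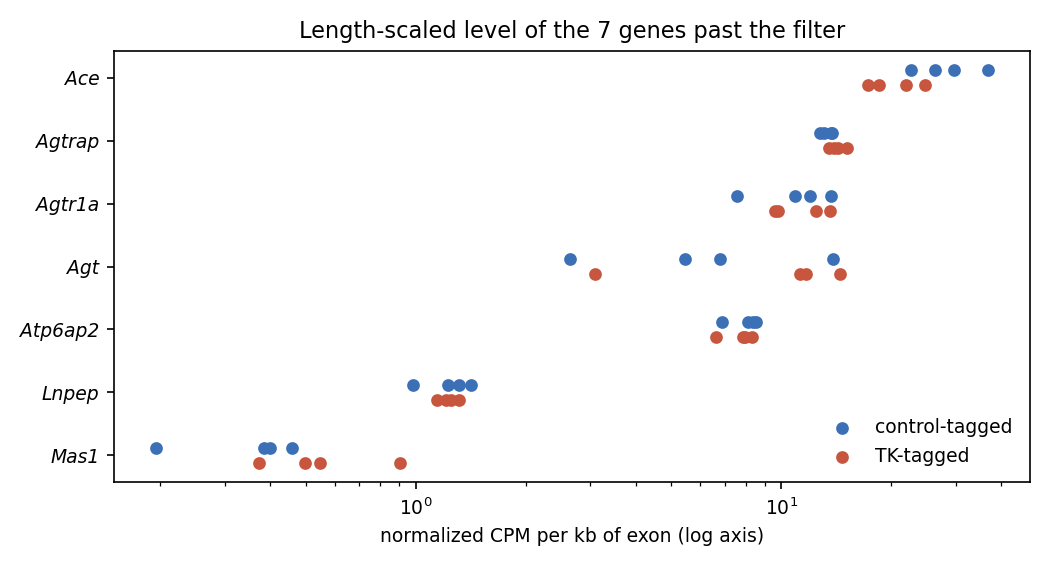
Level of the 7 tested genes in normalized CPM per kb of exon (log axis), with 1 point per library and the groups in 2 colours. *Ace* stands above all other genes, *Mas1* lies below 1 in every library, and *Agt* spreads from 2.65 to 14.5.

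The substrate of the cascade and the enzymes acting on it come first. *Ren1*, the gene of renin, had 0 counts in all 8 libraries, which allows a normalized CPM of up to 0.029 over all libraries by counting error. *Agt* (ENSMUSG00000031980, chromosome 8, 124556534 to 124569706) was present in every library, but at very different levels. Its normalized CPM in the control-tagged replicates 1 to 4 was 12.9, 5.01, 10.3 and 26.2. The TK-tagged replicates 1 to 4 had 5.85, 22.1, 21.3 and 27.3. The groups overlapped over nearly the whole range, with 3 TK-tagged libraries high and TK-tagged replicate 1 next to the lowest control-tagged library. The means were 13.6 ± 9.03 and 19.1 ± 9.26 (SD, n = 4 per group), with a log2 fold change of 0.50 (95% interval −0.53 to 1.53, edgeR quasi-likelihood FDR = 0.782). Single libraries moved this value, to 1.03 (FDR = 0.532) when control-tagged replicate 4 was left out, 0.22 for control-tagged replicate 2, 0.80 for TK-tagged replicate 1 and 0.28 for TK-tagged replicate 4.

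*Agt* was the member with the widest spread. The highest library was 5.46-fold above the lowest, and the SD within groups was 0.98 on the log2 scale, larger than in 99.4% of the genes tested (median 0.209). Liver and fat are known as strong sources of *Agt*. The 5 liver markers summed to at most 0.710 normalized CPM in any library, with 2 of them at 0 in all libraries. The 8 adipocyte markers summed to 0 to 1.61 in the control-tagged and 0 to 0.159 in the TK-tagged libraries, with *Plin1*, *Retn* and *Lep* at 0 in all. The part of such tissue in the spread of *Agt* was not tested. Fewer cells of a type and less RNA per cell cannot be told apart in such tissue libraries, for *Agt* or any other gene.

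*Ace* (ENSMUSG00000020681, chromosome 11, 105967945 to 105989964) differed most from equality relative to its error. The enzyme sits on the surface of endothelial cells, converts angiotensin I and also degrades bradykinin. Its normalized CPM in the control-tagged replicates 1 to 4 was 119.5, 195, 139 and 157.5. The TK-tagged replicates 1 to 4 had 116, 97.7, 91.2 and 130. The control-tagged libraries were higher except that control-tagged replicate 1 lay below TK-tagged replicate 4, so that the groups overlapped by this library. The means were 153 ± 32.0 and 109 ± 17.8 (SD, n = 4 per group), which gave a log2 fold change of −0.49 (SE 0.16, 95% interval −0.83 to −0.15). *Ace* had an unadjusted p = 0.00918 and an edgeR quasi-likelihood FDR = 0.464, and an exact permutation p = 0.0571 (2-sided), where 0.0286 is the smallest p that 4 libraries against 4 allow. It was not called, since calls needed an FDR below 0.1 with a log2 fold change of 0.585 or more in either direction. The log2 fold change stayed between −0.59 and −0.35 over 15 alternatives, with an FDR of 0.223 to 0.941.

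Endothelial and pericyte markers were mostly lower in the TK-tagged libraries. Smooth muscle markers were not, with 3 of 5 above 0 and a median log2 fold change of 0. Lower values were not particular to vessels. All 7 fibroblast and 7 of 8 macrophage and leukocyte markers were below 0, while 6 of 8 ventricular cardiomyocyte markers were above 0. Of 8 endothelial markers, 7 had a log2 fold change below 0, and 4, *Vwf*, *Tie1*, *Cdh5* and *Pecam1*, had an unadjusted p under 0.05, all lower, where 5.64% of all genes were lower at that value. Their summed normalized CPM was 1410 to 1800 in the control-tagged and 1270 to 1410 in the TK-tagged libraries, and none of the 8 was at 0. All 7 pericyte markers were below 0, 5 of them with an unadjusted p under 0.05, and their sum was 1160 to 1660 against 856 to 1180. Both sums overlapped between the groups. By the likelihood ratio test, *Vwf* and the pericyte markers *Kcnj8*, *Pdgfrb* and *Cspg4* had an FDR of 0.0587 to 0.0921. Each of them had an FDR of 0.442 by the edgeR quasi-likelihood test. DESeq2 gave an FDR of 0.0716 to 0.0983 for these pericyte markers and of 0.115 for *Vwf*. The likelihood ratio test called 0.391% of all genes tested. Such a call also needed the fold threshold, which *Pdgfrb* (−0.54) and *Cspg4* (−0.50) did not reach. Set against the summed endothelial markers, *Ace* was at 9.24 ± 1.53 and 8.03 ± 1.02 per 100 normalized CPM of the markers (SD, n = 4 per group). This is a log2 difference of −0.20 (2-sided exact permutation test, p = 0.2), where *Ace* alone differed by −0.48 on the same log2 scale of library means. Set against the pericyte markers, the difference was −0.06 (exact permutation test, p = 0.8). These ratios were chosen after the values had been seen, from marker sums that were themselves mostly lower in the TK-tagged libraries. Within the pericyte sum, *Rgs5* alone averaged 811 normalized CPM in the control-tagged and 581 in the TK-tagged libraries. The part of these cells in the difference of *Ace* was not tested. *Ace* shares 295 exon bases with *Gm11651* on the opposite strand, which was at 0 in every library. If the counting did not use strand, reads over these bases may be missing from both genes. Whole-gene counts do not separate the somatic and the shorter testis transcript of *Ace*.

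Among the receptors, nearly all reads fell on *Agtr1a* (ENSMUSG00000049115, chromosome 13, 30336441 to 30382867), the main AT1 receptor gene of the mouse. It had 290 to 498 counts per library and 3212 in all, against 1 count in all for *Agtr1b* (chromosome 3, 20314473 to 20367177), found in TK-tagged replicate 3. *Agtr2* (chromosome X, 21484544 to 21489164), the AT2 receptor gene, had 0 counts of 103658425 over the 8 libraries, with the same upper limit of 0.029 normalized CPM as *Ren1*. No fold between the groups can be given for these genes.

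The normalized CPM of *Agtr1a* was 30.3, 21.1, 33.5 and 38.2 in the control-tagged replicates 1 to 4. The TK-tagged replicates 1 to 4 had 27.2, 34.7, 37.9 and 26.7, so that all of them lay within the control-tagged range. The log2 fold change was 0.04 (95% interval −0.34 to 0.43, edgeR quasi-likelihood FDR = 0.961). Its sign was not stable, since it was −0.10 without control-tagged replicate 2. A change of the size of the call threshold in either direction lies outside this interval.

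*Mas1* (ENSMUSG00000068037, chromosome 17, 12841079 to 12868143), the Mas receptor gene, was close to the limit of what was tested. It had 14, 7, 15 and 15 counts in the control-tagged and 16, 11, 30 and 18 counts in the TK-tagged replicates 1 to 4. The normalized CPM was 1.05, 0.508, 1.01 and 1.20 against 1.30, 0.977, 2.37 and 1.44. Of the TK-tagged libraries 3 lay above every control-tagged library, and replicate 2 lay among them, so that the groups overlapped. The log2 fold change of 0.70 (95% interval −0.08 to 1.48) had an unadjusted p = 0.0753 and an edgeR quasi-likelihood FDR = 0.599, with an exact permutation p = 0.114. It rested in part on TK-tagged replicate 3, without which it was 0.40. *Airn*, a long noncoding RNA on the opposite strand, runs across *Mas1* without shared exon bases and had 64 to 84 counts per library. Whether the counting used strand is not stated, so reads of unspliced *Airn* over the exons of *Mas1* cannot be told apart from those of *Mas1*.

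Of the 3 genes of proteins that bind or modulate these parts, none differed between the groups beyond the spread of the libraries. *Agtrap* (ENSMUSG00000029007, chromosome 4, 148077061 to 148088031) encodes a protein that binds the AT1 receptor and promotes its internalization. It was among the steadiest genes of the LV, with a within-group SD of 0.06 on the log2 scale, larger than in 1.43% of the genes tested. Its normalized CPM was 55.5, 58.0, 54.1 and 58.5 in the control-tagged and 60.7, 64.2, 57.3 and 59.1 in the TK-tagged replicates 1 to 4. TK-tagged replicate 3 was below 2 control-tagged libraries, and the other TK-tagged libraries were above all of them. The log2 fold change was 0.09 (95% interval −0.08 to 0.27, edgeR quasi-likelihood FDR = 0.757).

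*Atp6ap2* (ENSMUSG00000031007, chromosome X, 12587801 to 12617049) encodes the (pro)renin receptor, which is also an accessory subunit of the V-ATPase proton pump. Its normalized CPM was 18.0 to 22.4 in the control-tagged and 17.3 to 21.8 in the TK-tagged libraries, with a log2 fold change of −0.05 (95% interval −0.30 to 0.19, edgeR quasi-likelihood FDR = 0.918). Replicate 3 was the lowest library of both groups. *Lnpep* (ENSMUSG00000023845, chromosome 17, 17521410 to 17625050) encodes an aminopeptidase that binds angiotensin IV and travels with the glucose transporter GLUT4. It was at 13.9 to 20.0 and 16.2 to 18.6 normalized CPM, a log2 fold change of −0.01 (95% interval −0.28 to 0.27, FDR = 0.994 from the same test). The TK-tagged libraries lay within the control-tagged range.

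**Figure D2:**
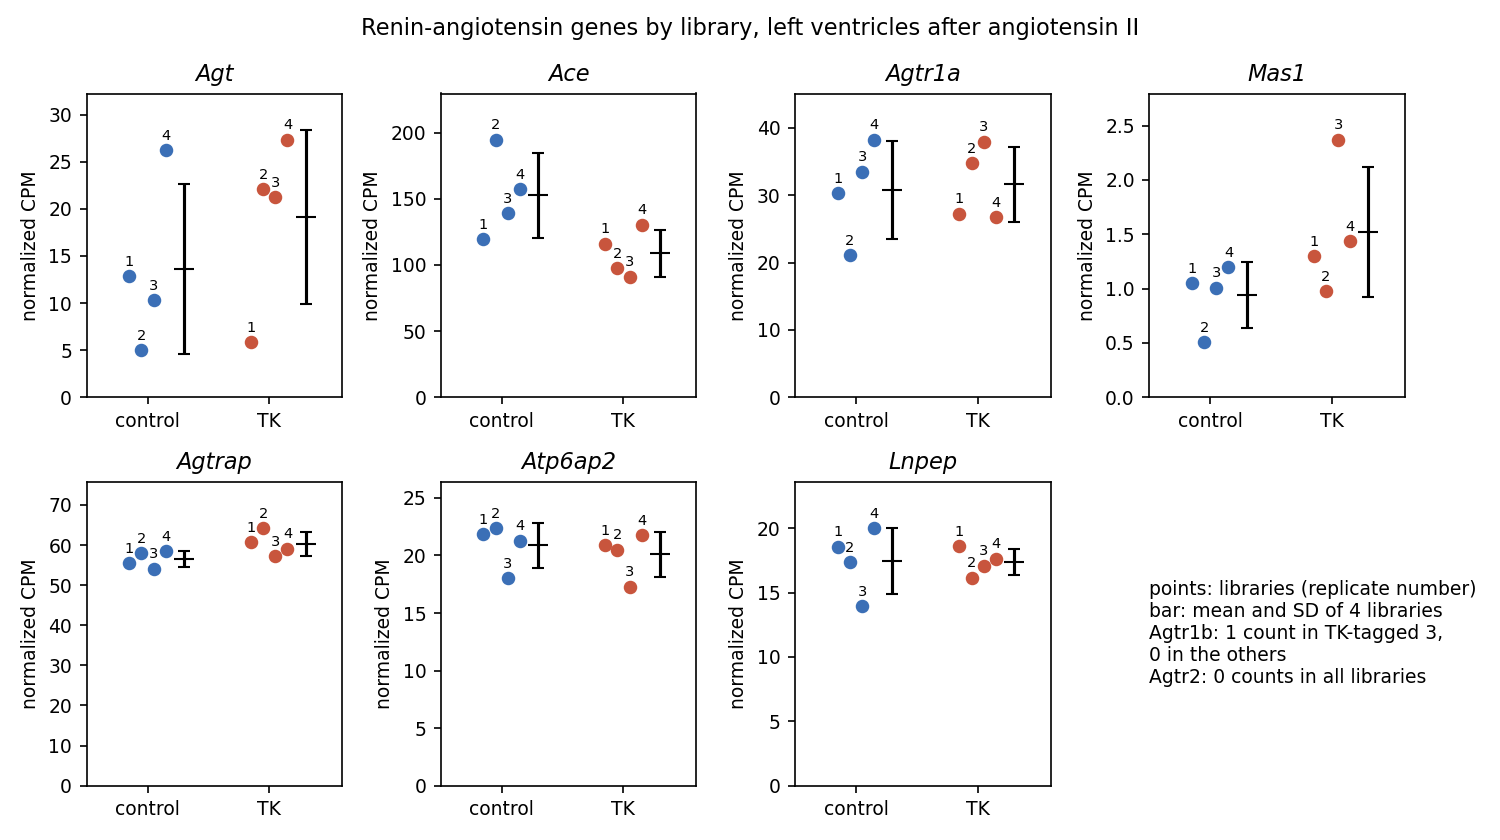
Normalized CPM of the 7 tested genes in each library, with points numbered by replicate and black bars for the mean and SD of 4 libraries per group. *Ace* is mostly lower in the TK-tagged libraries (91.2 to 130 against 120 to 195), *Agt* spreads widely in both groups, and *Agtrap*, *Atp6ap2* and *Lnpep* are steady.

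Over the whole table the quasi-likelihood test called 0 of the 7 tested genes, where it called 0.00738% of the 13542 genes tested. The likelihood ratio test and DESeq2 called 0 of the 7 as well, where they called 0.391% and 0.236% of the genes, and DESeq2 gave no adjusted p for *Mas1*. Without a filter on low counts 0 members were called, against 0.102% of the genes then tested. At an unadjusted p under 0.05 there was 1 gene, *Ace*, lower in the TK-tagged libraries. Of all genes tested, 8.96% reached that value, 3.32% higher and 5.64% lower. The groups were apart in 0 of the 7 genes, against 4.98% of all genes, 2.46% of them higher and 2.53% lower. Irrespective of any test, 4 of the 7, *Agt*, *Agtr1a*, *Mas1* and *Agtrap*, had a log2 fold change above 0, as did 49.7% of all genes. The intervals of *Agtr1a*, *Agtrap*, *Atp6ap2* and *Lnpep* all lay inside the thresholds of a call, while those of *Ace*, *Agt* and *Mas1* reached past one of them. For these, a difference of called size was not shown at this depth and number of libraries. Their intervals left it out in only 1 direction, higher for *Ace* and lower for *Agt* and *Mas1*.

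**Figure D3:**
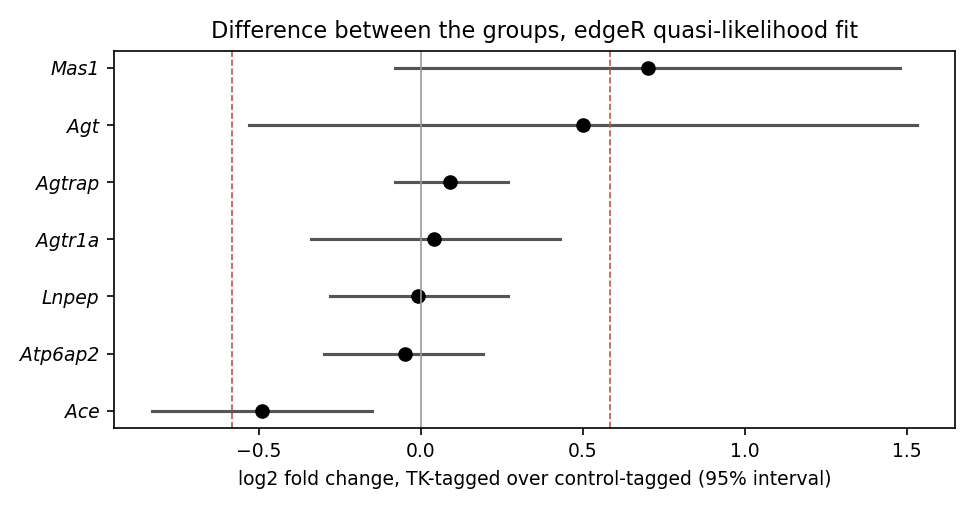
Log2 fold change of the 7 tested genes (TK-tagged over control-tagged) with its 95% interval from the quasi-likelihood fit, where dashed lines mark the call threshold of 0.585 in both directions. The interval of *Ace* (−0.83 to −0.15) is the one that leaves out 0, and those of *Agt* and *Mas1* are the widest.

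The members did not vary together in a way that passed correction. Of the 21 pairs of the 7 tested genes, compared by log2 normalized CPM over the 8 libraries, the lowest adjusted value was 0.381 (Benjamini-Hochberg over 21 exact permutation tests of Pearson's r) and 0.928 for Spearman's rho. *Ace* and *Mas1* had r = −0.73 (exact permutation p = 0.0439, adjusted 0.381) and rho = −0.48 (exact permutation p = 0.243). Without the 2 libraries farthest from the median of *Ace*, r was 0.32, so the relation rested on those libraries. *Agt* and *Agtr1a* had r = 0.68 (exact permutation p = 0.0609, adjusted 0.381) and rho = 0.45 (exact permutation p = 0.267). Without the 2 libraries farthest from the median of *Agt*, r was 0.06. With group means removed, r was −0.54 for the former pair and 0.69 for the latter.

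The genes most like each member were found by the root mean square distance between standardised profiles, the log2 normalized CPM over 8 libraries set to mean 0 and SD 1. The profile of *Ace* was nearest to that of *Mtmr11* (distance 0.144) and *Pros1* (0.160), the latter the gene of the anticoagulant protein S, where the median distance of all genes to *Ace* was 1.33. That of *Agtr1a* was nearest to *Vps8* (0.195) and *Myom1* (0.206), and that of *Agt* to *Kctd9* (0.305) and *Gm29216* (0.309). For *Mas1* these were *Vamp2* (0.218) and *Cdh2* (0.250), for *Agtrap* *Negr1* (0.218) and *Tmem131* (0.273). *Atp6ap2* was nearest to *Hspa13* (0.157) and *Lox* (0.257), and *Lnpep* to *Maged1* (0.277) and *Pxn* (0.278). With 13541 genes compared over 8 libraries, short distances arise for any profile.

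Of 16 other enzymes that make or cut angiotensin peptides, 14 passed the filter, and *Ren1* and *Ctsg* did not. The log2 fold change was below 0 in 13 of the 14, where 49.7% of all genes tested were above 0. The median was −0.14 against −0.00119 over all genes tested. By the quasi-likelihood test, the likelihood ratio test and DESeq2 alike, 0 of them had an FDR below 0.1. In the quasi-likelihood fit 2 had an unadjusted p under 0.05, both lower, where 5.64% of all genes were lower at that value. *Enpep*, aminopeptidase A, which trims angII to angiotensin III, was at 11.1, 14.6, 13.8 and 14 normalized CPM in the control-tagged replicates 1 to 4. It was at 9.26, 7.81, 8.37 and 11.5 in the TK-tagged replicates 1 to 4, where only replicate 4 reached into the control-tagged range. Its log2 fold change was −0.53 (SE 0.15, unadjusted p = 0.00413, edgeR quasi-likelihood FDR = 0.442). *Prcp*, a carboxypeptidase that makes angiotensin-(1-7), was at 20.1 to 22.0 and 13.4 to 20.1 without overlap before rounding, a log2 fold change of −0.34 (FDR = 0.521 from the same test). *Cma1*, a mast cell chymase gene, had 11 to 56 counts per library and a log2 fold change of −0.78 (SE 0.39, FDR = 0.591). *Mcpt4*, another mast cell protease gene, had 17 to 46 counts and was at −0.42 (FDR = 0.681). The 6 mast cell markers summed to 17.6 to 23.3 normalized CPM in the control-tagged and 14.4 to 18.7 in the TK-tagged libraries. The largest parts of this sum were *Kit* (means 9.74 and 7.67) and *Hdc* (5.37 and 4.83). *Fcer1a* and *Ms4a2* had at most 3 counts in any library and did not pass the filter. *Prep*, a prolyl endopeptidase, was at −0.15 (FDR = 0.666). The part of the vascular and mast cell markers in these values was not tested. The count of 2 was 3 by the likelihood ratio test, 1 without control-tagged replicate 2 or 4 or TK-tagged replicate 2 or 3, and 4 without TK-tagged replicate 1.

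All 29 genes of angiotensin receptor coupling passed the filter, and 22 had a log2 fold change below 0 (median −0.14). Of all genes tested, 49.7% were above 0 (median −0.00119). At an unadjusted p under 0.05 there were 9 of the 29, all lower, where 5.64% of all genes were lower at that value. The FDR was below 0.1 for 0 of them by the quasi-likelihood test and by DESeq2, and for *Hbegf* by the likelihood ratio test (FDR = 0.0921). *Hbegf*, the growth factor through which AT1 signaling transactivates the EGF receptor, was at 32.6 to 37.7 normalized CPM in the control-tagged and 18.6 to 28.2 in the TK-tagged libraries, without overlap. Its log2 fold change was −0.49 (SE 0.13, edgeR quasi-likelihood FDR = 0.442). *Adam17*, the protease that can release it, was at −0.25, and *Gnaq* and *Gna13*, G protein subunits of the receptor, were each at −0.20 (FDR = 0.492, 0.539 and 0.522). *Gnai2*, another G protein subunit, was at −0.39, *Arrb1*, an arrestin, at −0.33 and *Rgs5*, a regulator of G protein signaling that is also a pericyte marker, at −0.48 (FDR = 0.468, 0.492 and 0.476). The endothelial and pericyte markers lay below 0 in the same comparison (median log2 fold change −0.27 and −0.50), and their part in these values was not tested. The count of 9 was 4 without control-tagged replicate 2 or TK-tagged replicate 2, and 5 without TK-tagged replicate 3.

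**Figure D4:**
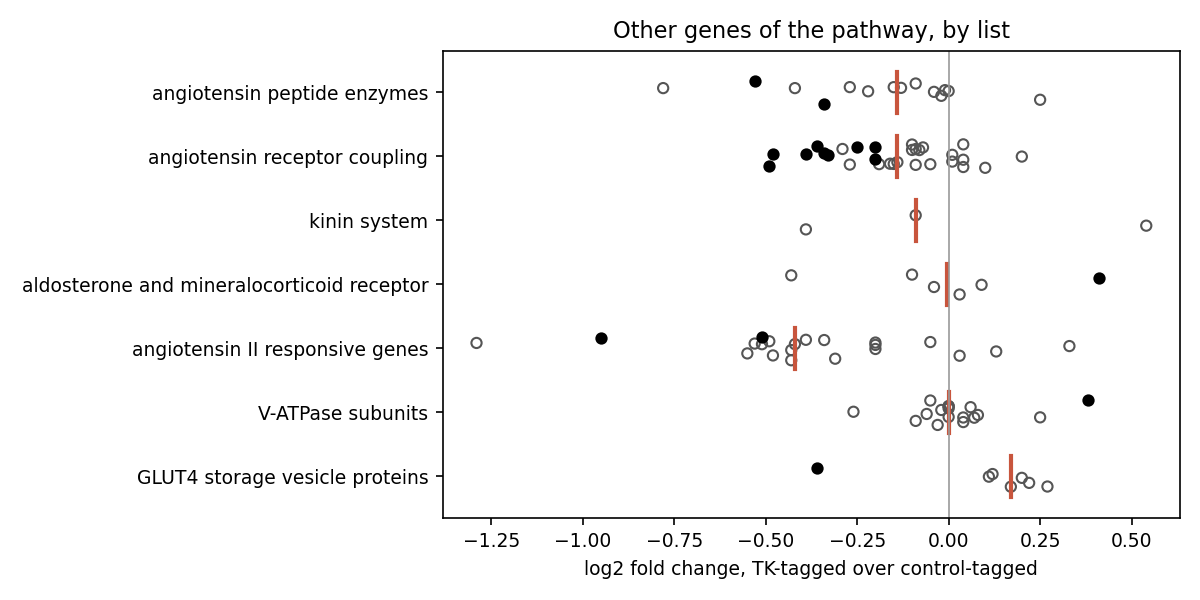
Log2 fold change (TK-tagged over control-tagged) of the tested genes of 7 lists, with filled points for an unadjusted p under 0.05 and a bar at each list's median. The receptor coupling and angII responsive lists lie mostly below 0, and the V-ATPase list is centred on 0.

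Of 22 genes that angII is known to induce in heart or vessels, 21 passed the filter, and 18 had a log2 fold change below 0 (median −0.42). Of these, 2 had an unadjusted p under 0.05, *Ctgf* and *Rcan1*, and 0 an FDR below 0.1 in the quasi-likelihood fit. Of all genes tested, 8.96% reached that p and 5.64% did so with a lower value, so a count of 2 of 21 is near the background. Irrespective of p, 49.7% of all genes tested had a log2 fold change above 0. *Ctgf*, a matricellular protein of fibrosis, had an FDR below 0.1 by the likelihood ratio test (FDR = 0.0587) and by DESeq2 (FDR = 0.0561). Its normalized CPM was 239, 314, 409 and 438 in the control-tagged and 206, 129, 129 and 261 in the TK-tagged replicates 1 to 4, where TK-tagged replicate 4 lay above control-tagged replicate 1. It differed by −0.95 on the log2 scale (SE 0.25, edgeR quasi-likelihood FDR = 0.442). *Rcan1*, a feedback inhibitor of calcineurin, was at −0.51, *Tgfb1* at −0.20 and *Fn1*, fibronectin, at −0.53 (FDR = 0.539, 0.559 and 0.588). The list holds matrix genes of fibroblasts. The 7 fibroblast markers summed to 1140 to 1640 normalized CPM in the control-tagged and 638 to 1420 in the TK-tagged libraries. *Col1a1* belongs to both lists, so the marker sum is not independent of the list. Among the markers, *Col1a1* and *Col1a2* were at −0.39 and −0.44, and the others between −0.22 and −0.09. The part of the markers in these values was not tested. The count of 2 was 4 by the likelihood ratio test and 8 with the replicate number as a block. No pairing of the libraries is stated, and the numbers were not taken as pairs. The count was 1 without control-tagged replicate 2, TK-tagged replicate 2 or TK-tagged replicate 3. Without control-tagged replicate 4 it was 4, without TK-tagged replicate 1 it was 6 and without TK-tagged replicate 4 it was 7.

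In the aldosterone arm the receptor was present, and the enzymes of the last steps of synthesis were at or near 0. Of 10 genes, 6 passed the filter. *Cyp11b2*, aldosterone synthase, had at most 1 count in any library, and *Cyp11b1* had 0. *Nr3c2*, the mineralocorticoid receptor, was at 7.78, 9.22, 6.99 and 11 normalized CPM in the control-tagged and 11.2, 11.7, 12.3 and 11.2 in the TK-tagged replicates 1 to 4, without overlap. Its log2 fold change was 0.41 (SE 0.15, unadjusted p = 0.0187, edgeR quasi-likelihood FDR = 0.492). It was the only gene of the list with an unadjusted p under 0.05, where 8.96% of all genes reached that value. Without control-tagged replicate 1 the list had none. *Star*, *Nr3c1* and *Lcn2* were at −0.43, −0.10 and 0.09.

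Of 9 genes of the kinin system, whose peptide bradykinin is degraded by ACE, 3 passed the filter and 0 had an unadjusted p under 0.05, or 1 without control-tagged replicate 3 or TK-tagged replicate 4. *Cpm*, *Xpnpep2* and *Xpnpep1*, peptidases that cut kinins, had log2 fold changes of −0.39, 0.54 and −0.09, while the receptor genes *Bdkrb1* and *Bdkrb2* had at most 1 and 6 counts per library.

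The partners of *Atp6ap2* and *Lnpep* were read for comparison with them. All 17 V-ATPase subunits passed the filter, 8 of them were above and 9 below 0, and the median log2 fold change was 0. Only *Atp6v1g1* had an unadjusted p under 0.05 (log2 fold change 0.38, edgeR quasi-likelihood FDR = 0.532), where 8.96% of all genes reached that value. *Atp6v1g2*, *Atp6v0c* and *Atp6ap1* were at 0.25, −0.26 and −0.09. Subunits at an unadjusted p under 0.05 numbered 2 without control-tagged replicate 2 and 0 without TK-tagged replicate 1, 2 or 4. Of 7 proteins of GLUT4 storage vesicles, 6 were above 0 (median 0.17), where 49.7% of all genes tested were. *Lrp1*, a lipoprotein receptor that vascular and mesenchymal cells also express, was at −0.36 (unadjusted p = 0.0303, FDR = 0.521 from the same test). It was the only 1 of the 7 at an unadjusted p under 0.05, where 5.64% of all genes were lower at that value. *Tbc1d4*, *Sort1* and *Aspscr1* were at 0.27, 0.22 and 0.20, and none of these 3 passed the unadjusted threshold. The count of 1 was 0 without control-tagged replicate 2 or TK-tagged replicate 3, and 2 without control-tagged replicate 4 or TK-tagged replicate 1 or 4.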

How the data were processed

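The authors prepared stranded libraries, trimmed reads with Trim Galore 0.4.4 and used STAR 2.5.4b for alignment to GRCm38, with up to 10 alignments per read. They counted reads on GENCODE M16 genes with featureCounts. The methods state poly-A selection and the labels depletion of ribosomal RNA. The settings of the counting for strand and for reads with several alignments are not given in the sources used here. The authors deposited raw counts per gene, without normalization. Replicates of one group differed by more than sampling noise (chi-square per degree of freedom 6.77 to 49.9).

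The 13542 genes that reached a CPM of 1 in 2 or more libraries were tested by the quasi-likelihood test of edgeR 4.0.16 (TMM, all 8 libraries, no covariates) in R 4.3.3. P-values were adjusted over all genes tested (FDR). The authors used the likelihood ratio test, which was an alternative here, as were DESeq2 1.42.0, other scalings and filters, each library left out, and a replicate block. Single values were compared with exact permutation tests over 70 splits. Log2 values used a prior count of 2. Exon lengths and sequences came from GENCODE M21. Intervals cover 95%.

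Named genes were the 9 members, *Flt1*, the 4 genes with the lowest p of each of 7 lists, *Ren1*, *Cma1*, and the 2 genes with the nearest profile to each tested member. Other genes were named after their values were seen. Members and lists were chosen with earlier results of these data known. One gene of the lists is not reported here.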

Additional observations from a re-analysis of the deposited data

How the results depend on the processing

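The number of genes called over the whole table was 1 by the quasi-likelihood test, 53 by the likelihood ratio test, 32 by DESeq2, 23 without a filter on low counts, and 1 to 3 with each library left out. No renin-angiotensin gene was called under any of the 15 alternatives. The number with an unadjusted p under 0.05 was 1 to 2 with each library left out, since *Agt* joined *Ace* without control-tagged replicate 4 and *Mas1* joined it without TK-tagged replicate 2, and 1 under the other alternatives. Directions turned for genes near 0. *Agtr1a* was at −0.10, −0.01 and −0.06 without control-tagged replicate 2, TK-tagged replicate 2 and TK-tagged replicate 3. *Atp6ap2* was at 0.01 without TK-tagged replicate 3. *Lnpep* was at 0.02, 0.07, 0.02 and 0 without control-tagged replicates 1 and 4 and TK-tagged replicates 2 and 3. With each library left out, *Agtr1a* ranged from −0.10 to 0.16, *Atp6ap2* from −0.12 to 0.01 and *Lnpep* from −0.10 to 0.07. *Ace*, *Agt*, *Mas1* and *Agtrap* kept their direction under all 15 alternatives. With each library left out, the list counts at an unadjusted p under 0.05 ranged from 1 to 4 for the peptide enzymes, 4 to 9 for receptor coupling, 0 to 1 for the kinin system, 0 to 1 for aldosterone, 1 to 7 for angII responsive genes, 0 to 2 for V-ATPase and 0 to 2 for GLUT4 vesicles. The angII responsive list had 2 such genes in the main fit, 4 by the likelihood ratio test and 8 with the replicate block. The cause was not tested.

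The replicate numbers are shared between the groups without a stated pairing. Deviations of same-numbered libraries correlated at −0.029, 0.029, 0.34 and −0.055 for replicates 1 to 4. Only control-tagged replicate 3 correlated most with the TK-tagged library of its own number. The numbers were not taken as pairs, because replicates 1, 2 and 4 did not match in this way. Whether the replicate 3 libraries share a factor was not tested. With the replicate block, 1 gene was called over the whole table, the log2 fold change of *Ace* was −0.48 and that of *Lnpep* was 0.

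Depth limits *Mas1*, with 7 to 30 counts per library, and *Agtr2* and *Ren1*, at 0. All directions rest on the library names and reverse by the titles.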
